A study of Mus musculus with 42 samples.

Results

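RNA sequencing of mouse liver at Zeitgeber time (ZT) 4, 4 h after lights on, was compared with that at ZT 0, the moment of lights on. The 12 libraries of these times, taken by their labelled time and diet, were 6 at ZT 4 and 6 at ZT 0 of 42 libraries in all, with diet as a block. Each library was the liver of a separate female mouse of the strain C57BL/6NHsd (labelled C57BL/6), given the AIN93G standard diet or the high-fat diet (HFD), a modified AIN93 diet with soybean oil as its fat source, for 3 weeks from weaning at 3 weeks of age. Each diet had 3 mice at each time, all in a light and dark cycle with lights off at ZT 12, group-housed and not fasted, so that feeding before collection was not controlled. The animals at ZT 0 and ZT 4 were different mice, and no untreated or genetically altered group was involved. Libraries are named by diet, time and replicate, and the replicate numbers only name mice.

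The circadian clock of the liver is a feedback loop of transcription. ARNTL (BMAL1), together with CLOCK or its paralog NPAS2, activates genes through E-box elements, among them the period and cryptochrome genes, whose proteins repress ARNTL and its partners, and the nuclear receptors Nr1d1 and Nr1d2 (REV-ERB alpha and beta). The REV-ERB proteins compete with the ROR receptors at ROR elements, which they repress and the RORs activate, and Arntl, Npas2, Cry1 and Nfil3 are known targets. The PAR bZIP factors Dbp, Tef and Hlf act at D-box elements, which the repressor NFIL3 also binds. In mice these loops turn over strongly in the liver between dawn and midday, and they also drive metabolic genes there.

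The promoter windows of 5 of the clock genes that changed are shown because they carry the letters of 3 elements of this loop. The windows are 300 bases of RefSeq sequence (build GRCm38.p6), from 250 bases before to 50 after the annotated start, printed 5' to 3' on the strand of the gene, with matches in capitals. Per3 (chr4:151044616-151044915, minus strand) held the D-box letters TTATGTAA at 205 and 158 bases before the start. Tef (chr15:81802423-81802722, plus strand) and Cry1 (chr10:85185005-85185304, minus strand) held the E-box CACGTG at 127 and 60 bases before it. Arntl (chr7:113207261-113207560, plus strand) and Nfil3 (chr13:52980990-52981289, minus strand) held the ROR half-site TAGGTCA, in Nfil3 on the other strand, where it reads TGACCTA.
Per3: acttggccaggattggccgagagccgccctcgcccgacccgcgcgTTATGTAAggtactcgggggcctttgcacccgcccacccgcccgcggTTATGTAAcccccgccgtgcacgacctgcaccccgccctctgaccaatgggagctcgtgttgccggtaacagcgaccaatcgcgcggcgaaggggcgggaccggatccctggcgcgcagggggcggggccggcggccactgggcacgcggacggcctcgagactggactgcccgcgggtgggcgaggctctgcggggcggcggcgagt
Tef: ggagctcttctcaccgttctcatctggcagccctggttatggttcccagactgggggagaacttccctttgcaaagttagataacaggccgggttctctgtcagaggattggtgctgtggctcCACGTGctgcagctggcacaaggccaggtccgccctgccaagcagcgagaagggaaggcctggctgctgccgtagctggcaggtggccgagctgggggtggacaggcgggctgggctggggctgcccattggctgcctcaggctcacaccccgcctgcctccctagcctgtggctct
Cry1: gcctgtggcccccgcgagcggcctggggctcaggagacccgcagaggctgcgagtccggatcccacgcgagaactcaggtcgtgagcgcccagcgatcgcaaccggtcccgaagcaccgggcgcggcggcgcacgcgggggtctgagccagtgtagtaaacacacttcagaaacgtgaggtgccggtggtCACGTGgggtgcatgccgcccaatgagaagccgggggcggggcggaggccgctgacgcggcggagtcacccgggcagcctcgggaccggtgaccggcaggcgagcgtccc
Arntl: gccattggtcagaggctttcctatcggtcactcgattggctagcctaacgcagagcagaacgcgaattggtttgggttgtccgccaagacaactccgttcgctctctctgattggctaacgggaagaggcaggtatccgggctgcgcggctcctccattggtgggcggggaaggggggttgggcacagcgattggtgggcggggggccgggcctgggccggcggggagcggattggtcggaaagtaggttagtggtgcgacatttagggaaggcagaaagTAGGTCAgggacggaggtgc
Nfil3: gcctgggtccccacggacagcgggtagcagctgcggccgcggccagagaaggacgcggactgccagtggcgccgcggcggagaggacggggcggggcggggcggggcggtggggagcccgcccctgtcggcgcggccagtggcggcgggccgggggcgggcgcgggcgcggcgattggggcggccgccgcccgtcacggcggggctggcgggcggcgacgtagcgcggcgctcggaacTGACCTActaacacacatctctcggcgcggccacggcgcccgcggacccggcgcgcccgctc
Per3 and Tef rose at ZT 4, and Cry1, Arntl and Nfil3 fell.

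Of the 19 clock genes listed, 17 matched at least 1 RefSeq window. Windows of 8 of these genes held letters of at least 1 of the 3 elements, the E-box in Bhlhe41, Ciart, Cry1, Per1 and Tef, the D-box in Per3, and the ROR half-site in Arntl and Nfil3. Both strands were searched, the D-box as TTATGTAA or TTACGTAA. The E-box stood in 7.15% of all 32851 windows and in 9.83% of the 11878 windows of tested genes. Among windows of genes that rose at ZT 4 it was in 9 of 70 (12.9%), and among those of genes that fell in 20 of 105 (19.0%). The ROR half-site stood in 2.08% of windows of tested genes, in 7 of 105 windows of genes that fell (6.67%), and in 0 of 70 of genes that rose. The D-box letters stood in 0.758% of windows of tested genes, in 1.43% for genes that rose and in 0% for genes that fell. These shares are descriptions, with no test, and a gene may have several windows.

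The depth of the 12 libraries was similar, from 15123633 to 17975846 counts. Of 54532 genes, 12003 had a mean of at least 25 counts over the 12 libraries and were tested. In each of 12 pairs of replicates the counts differed beyond sampling noise, with a chi-square of at least 14.5 per degree of freedom. Levels are given as CPM, counts scaled to a common library total with the TMM factors, as mean ± SD (n = 6), and a log2 fold change is that of ZT 4 over ZT 0 with its SE. A gene was called at an adjusted p under 0.05 in the quasi-likelihood test of edgeR. The SE was taken as the size of the log2 fold change over the square root of the F statistic of that test.

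Between ZT 0 and ZT 4, 171 genes changed (1.42% of those tested), of which 64 rose (0.533%) and 107 fell (0.891%). The count was 433 with DESeq2 and lay between 53, without AIN93G ZT 0 replicate 2, and 167 when 1 library was left out. Most changes were small. The median size among the 171 was 0.70 on the log2 scale (1.63-fold), 43 genes changed by over 2-fold and 69 by under 1.5-fold. The median log2 fold change of all tested genes was 0.0047. The CPM of the 6 ZT 4 and the 6 ZT 0 libraries did not overlap for 157 genes (1.31% of those tested), of which 96 were among the 171. An unadjusted p under 0.05 was found for 1897 genes (15.8%). The 5 largest rises and the largest fall were those of clock genes.

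**Figure D1:**
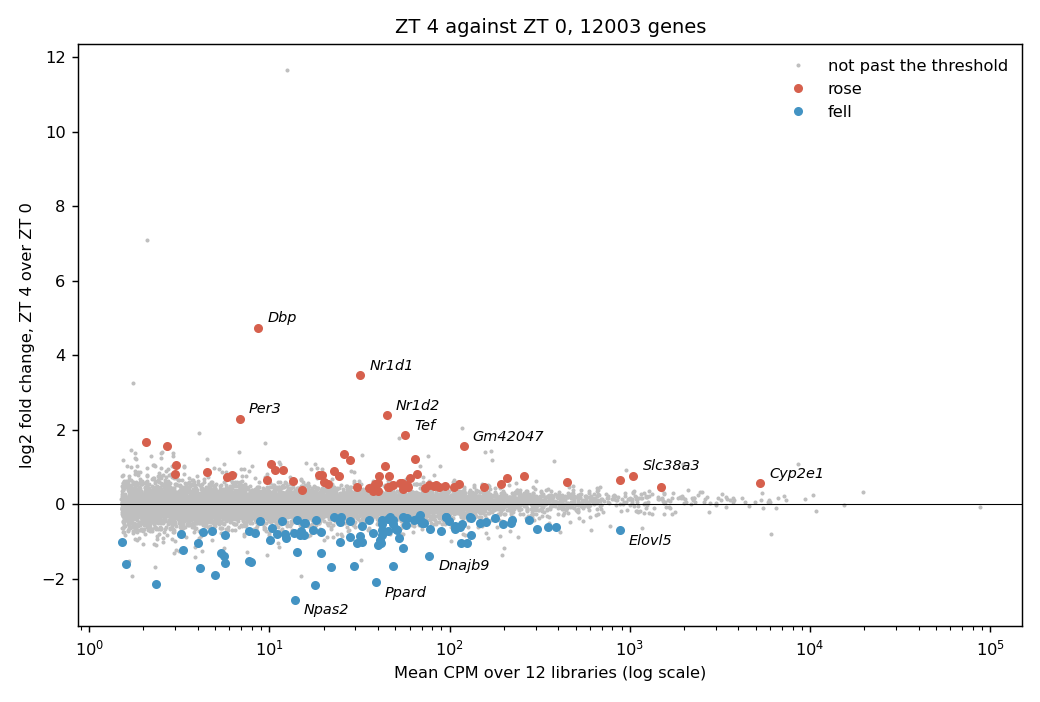
Each point is 1 of 12003 genes, with its mean CPM over the 12 libraries on a log x axis and its log2 fold change at ZT 4 over ZT 0 on the y axis, and colours mark the 64 genes that rose and the 107 that fell. Dbp, Nr1d1 and Nr1d2 have the largest rises among called genes and Npas2 the largest fall, while the grey points far above them are genes high in 1 ZT 4 library, such as Dmbt1 with 2231 counts in 1 AIN93G library and at most 4 in the others.

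Of the 16 clock genes tested, 10 passed the threshold (62.5%, against 1.42% of all genes), 6 rising and 4 falling. Their median size was 2.07 on the log2 scale. The libraries of the times did not overlap for 9 of the 16, against 157 of all 12003 genes (1.31%). The clock genes were listed with earlier results of these data known. Ciart, Bhlhe41 and Rorb lay below the filter, with mean counts of 12.8, 2.83 and 0.

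Both REV-ERB receptors rose. Nr1d2 (chr14:18204054-18239127) was at 10.2, 12.2 and 13.7 CPM in the AIN93G libraries and at 17.3, 16.9 and 15.4 CPM in the HFD libraries at ZT 0. At ZT 4 it was at 76.4, 49.1 and 58.7 CPM with AIN93G and at 78.3, 90.8 and 98.6 CPM with HFD. The lowest ZT 4 library thus lay well above the highest ZT 0 library, and Nr1d2 had the lowest p of all genes (14.3 ± 2.78 against 75.3 ± 18.7 CPM, log2 fold change 2.39, SE 0.11, 5.25-fold, adjusted p = 5.92e-08). Nr1d1 (chr11:98767932-98775333) was at 2.36, 2.31 and 6.6 CPM with AIN93G and at 9.96, 8.47 and 2.99 CPM with HFD at ZT 0. At ZT 4 the levels were 72.4, 34.3 and 42.1 CPM with AIN93G and 62.4, 60.6 and 78.2 CPM with HFD. This was an 11-fold rise without overlap (log2 fold change 3.46, SE 0.31, adjusted p = 0.00013). Nr1d1 overlaps Thra on the opposite strand, and the strand setting of the counting is not given in the sources used here.

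Of the ROR receptors, which oppose the REV-ERBs, Rora had 100 to 123 CPM at ZT 0 and 79.4 to 99.8 CPM at ZT 4, which do not overlap, but it missed the threshold (log2 fold change -0.30, adjusted p = 0.0814).

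The PAR bZIP genes Dbp, Tef and Hlf all rose. Dbp (chr7:45705088-45710203) was close to the floor at ZT 0, with 4 to 15 counts in a library, or 0.863, 0.257 and 0.432 CPM with AIN93G and 0.507, 0.721 and 0.388 CPM with HFD. At ZT 4 it was at 12.2, 1.98 and 3.91 CPM with AIN93G and at 32.1, 14.9 and 35.5 CPM with HFD. All 6 ZT 4 libraries lay above all ZT 0 libraries, and the 3 HFD libraries above the 3 AIN93G libraries at ZT 4. The rise was the largest of any gene called, 26.7-fold, with a wide spread at ZT 4 (0.528 ± 0.225 against 16.8 ± 14.1 CPM, log2 fold change 4.74, SE 0.54, adjusted p = 0.0007). Sphk2, which overlaps Dbp on the opposite strand, also rose (log2 fold change 0.57, adjusted p = 0.0388), and reads of the pair may not be told apart.

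Tef (chr15:81802421-81826863) stood at 26.5, 18.9 and 20.1 CPM with AIN93G and at 26.7, 28.4 and 21.7 CPM with HFD at ZT 0. The ZT 4 values were 84.0, 36.9 and 61.7 CPM with AIN93G and 139, 91.9 and 123 CPM with HFD. As for Dbp, the HFD libraries at ZT 4 were all above the AIN93G libraries (3.59-fold for both diets, log2 fold change 1.84, SE 0.20, adjusted p = 0.000529). Hlf rose less, from 38.2 ± 3.22 to 52.4 ± 8.79 CPM (log2 fold change 0.45, SE 0.10, adjusted p = 0.0392). Its libraries did not overlap, at 34.6 to 42.1 and 43.1 to 66.7 CPM, yet the call was lost without any 1 of 10 libraries (highest adjusted p = 0.0995). Nfil3, the repressor at the same D-box elements, fell. It had 62.7 to 72.5 CPM in the 6 ZT 0 libraries, and at ZT 4 it had 36.6, 63.2 and 36.2 CPM with AIN93G and 20.5, 31.6 and 34.6 CPM with HFD. The libraries overlapped only through AIN93G ZT 4 replicate 2 at 63.2 CPM (log2 fold change -0.90, SE 0.18, adjusted p = 0.0228). The call was lost without any 1 of 4 libraries, AIN93G ZT 0 replicate 2, HFD ZT 0 replicate 3, AIN93G ZT 4 replicate 1 or HFD ZT 4 replicate 3 (highest adjusted p = 0.0632). Bhlhe40 (DEC1), an E-box repressor, had 51.9 to 76.6 CPM at ZT 0 and 41.2 to 101 CPM at ZT 4 (log2 fold change -0.01, adjusted p = 0.985).

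Of the activators, Npas2 and Arntl fell and Clock did not pass. Npas2 (chr1:39193731-39363236) was at 28.8, 31.3 and 21 CPM with AIN93G and at 23.1, 18 and 17.8 CPM with HFD at ZT 0. By ZT 4 it stood at 3.74, 9.32 and 6.95 CPM with AIN93G and at 2.06, 2.46 and 1.62 CPM with HFD. The groups were far apart in both diets (5.92-fold lower, log2 fold change -2.56, SE 0.26, adjusted p = 0.000336), which was the largest fall among called genes. Arntl (chr7:113207465-113314126) had 43.0, 40.1 and 43.0 CPM with AIN93G and 47.1, 39.9 and 46.9 CPM with HFD at ZT 0. The ZT 4 values were 17.9, 34.5 and 27.7 CPM with AIN93G and 15.9, 18.1 and 16.5 CPM with HFD. The ZT 0 libraries were tight and the AIN93G ZT 4 libraries spread, without overlap between times (log2 fold change -1.02, SE 0.16, adjusted p = 0.00903). Clock, which pairs with ARNTL, had 87.9 ± 7.85 CPM at ZT 0 and 74.0 ± 10.5 CPM at ZT 4 (log2 fold change -0.25, adjusted p = 0.244).

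Among the period and cryptochrome genes, Per3 rose, Cry1 fell, and Per1, Per2 and Cry2 did not pass. Per3 (chr4:151003652-151044665) was at 3.68, 1.54 and 1.54 CPM with AIN93G and at 2.41, 1.80 and 1.33 CPM with HFD at ZT 0. At ZT 4 it was at 5.61, 4.51 and 6.52 CPM with AIN93G and at 27, 8.86 and 17.1 CPM with HFD. The times did not overlap, and the 3 HFD libraries were again above the 3 AIN93G libraries at ZT 4 (4.91-fold, log2 fold change 2.29, SE 0.40, adjusted p = 0.0154). Cry1 (chr10:85131700-85185064) was at 45.8, 43.6 and 45.9 CPM with AIN93G and at 35, 33 and 40.5 CPM with HFD at ZT 0, and at 11.4, 41.7 and 26.8 CPM and 14.1, 14.6 and 14.9 CPM at ZT 4. The times overlapped through AIN93G ZT 4 replicate 2 at 41.7 CPM. The fall passed narrowly (log2 fold change -1.03, SE 0.22, adjusted p = 0.0348) and was lost when any library other than AIN93G ZT 4 replicates 1 and 2 was left out (highest adjusted p = 0.0878). Per1, which responds acutely to several signals, had 3.02 to 37.0 CPM at ZT 0 and 9.08 to 23.3 CPM at ZT 4 (log2 fold change -0.28, adjusted p = 0.71). Per2 had 15.1 ± 3.61 and 18.7 ± 8.17 CPM (log2 fold change 0.31, adjusted p = 0.603). For Cry2 the values were 28.7 ± 4.17 and 31.9 ± 4.49 CPM (log2 fold change 0.16, adjusted p = 0.298).

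**Figure D2:**
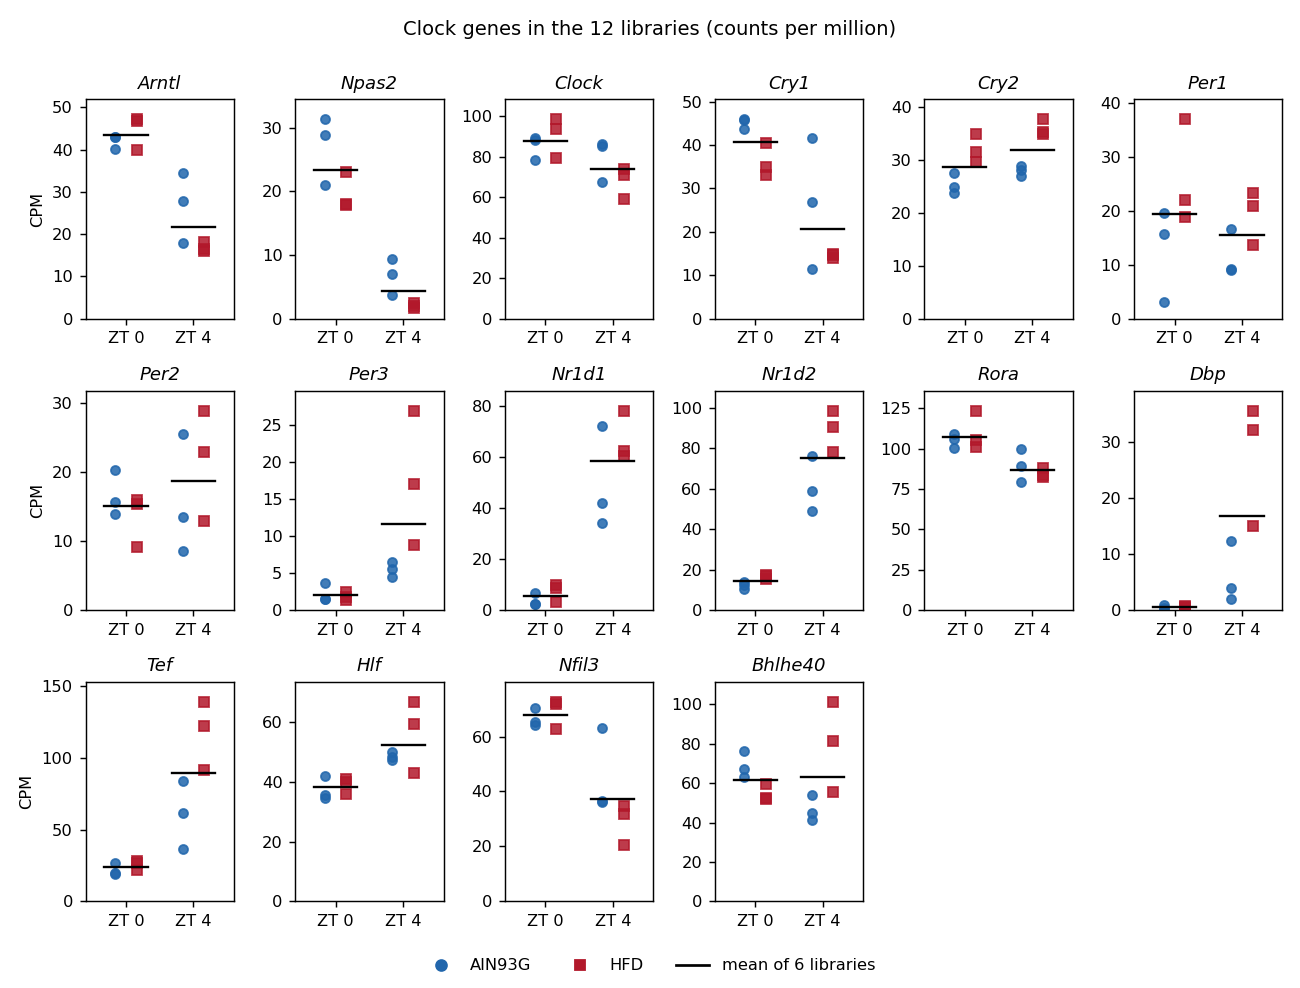
CPM (y axis, from 0) of the 16 tested clock genes in each library at ZT 0 and ZT 4, with circles for AIN93G, squares for HFD and a line at the mean of 6 libraries. Nr1d1, Nr1d2, Dbp, Tef and Per3 at ZT 4 lie above all ZT 0 libraries and Npas2 and Arntl below them, while for Cry1 and Nfil3 AIN93G ZT 4 replicate 2 (41.7 and 63.2 CPM) lies among the ZT 0 libraries.

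Per length, several clock genes changed place in the order of levels between the times. On the scale of CPM per kilobase of gene length (RPKM), Nfil3 was the highest at ZT 0 at 33.5, followed by Bhlhe40 at 13.1 and Cry1 at 12.2. Nr1d1 was then at 1.77, Per3 at 0.214 and Dbp, the lowest, at 0.176. At ZT 4 the highest levels were those of Nr1d1 at 19.0 and Nfil3 at 18.3 RPKM, neighbours whose libraries overlap on this scale, followed by Nr1d2 at 13.9 and Bhlhe40 at 13.4. Npas2 went from 4.87 to 0.910 RPKM, the lowest level at ZT 4.

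The levels at ZT 8, given as a description on the common scale of the 18 libraries of ZT 0, 4 and 8, show how far each gene had come at ZT 4. Dbp had means of 0.523, 16.6 and 126 CPM at ZT 0, 4 and 8. Per3 had 2.03, 11.5 and 85.6 CPM and Tef 23.5, 88.4 and 273 CPM, so these genes were still well below their ZT 8 level at ZT 4. Nr1d1 differed in this, with 5.39, 57.7 and 78.0 CPM and overlapping libraries at ZT 4 and ZT 8. On the falling side, Npas2 had 23.1, 4.31 and 0.102 CPM, Arntl 42.9, 21.5 and 1.90 CPM and Nfil3 67.1, 36.7 and 14.3 CPM. Bhlhe40, with 61.2 and 62.3 CPM at ZT 0 and ZT 4, was at 162 CPM at ZT 8, and Per1 was at 19.2, 15.3 and 51.5 CPM.

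**Figure D3:**
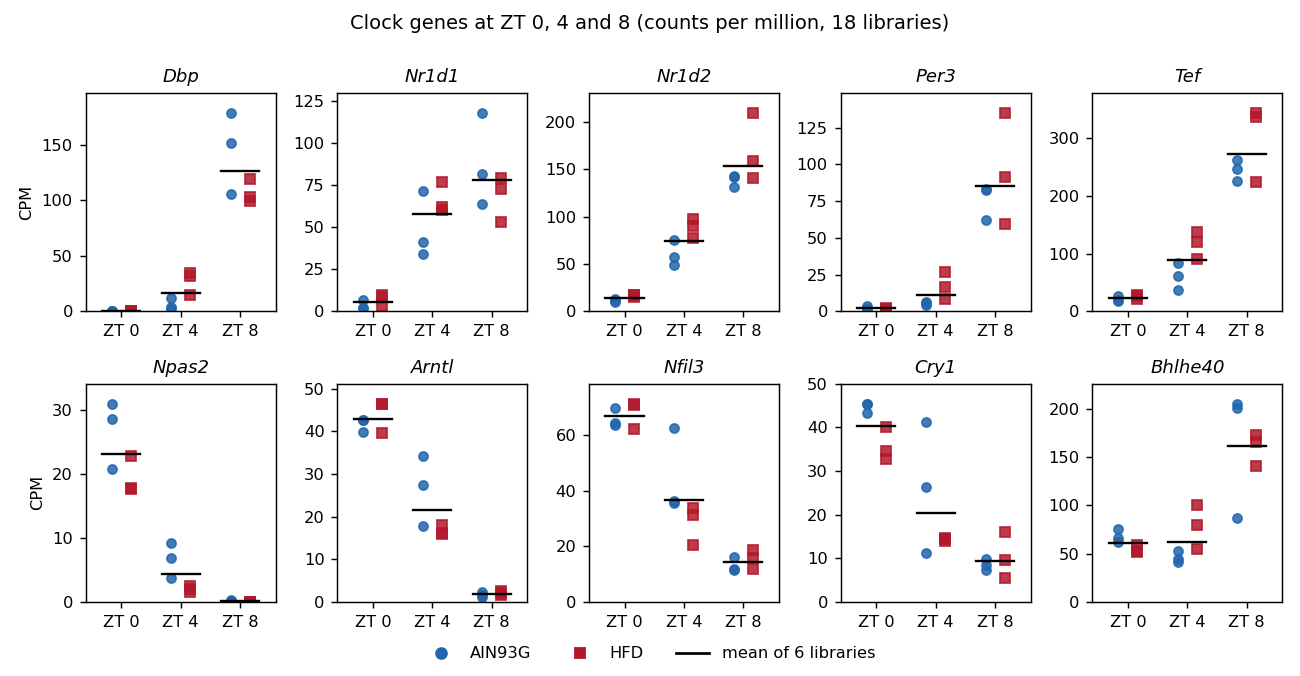
CPM (y axis, from 0) of 10 clock genes in the 18 libraries of ZT 0, ZT 4 and ZT 8, with circles for AIN93G, squares for HFD and lines at the means of 6 libraries. Means of Dbp run 0.523, 16.6 and 126 CPM and those of Arntl 42.9, 21.5 and 1.90 CPM, and the mean of Bhlhe40 is higher only at ZT 8, at 162 CPM.

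Outside the clock lists, the genes that rose most without overlap were of mixed function. Klhdc7a, a kelch-domain protein, had 17.7, 13.1 and 13.2 CPM with AIN93G and 12.9, 14.7 and 16.4 CPM with HFD at ZT 0. At ZT 4 it had 39.6, 25.9 and 33.4 CPM and 34.5, 34.8 and 56.0 CPM. All ZT 4 libraries were higher than all ZT 0 libraries (log2 fold change 1.34, SE 0.15, adjusted p = 0.0007). Gnat1, known as the alpha subunit of rod transducin, rose from 12.8 to 23.6 CPM at ZT 0 to between 34.2 and 46.5 CPM at ZT 4 (log2 fold change 1.19, SE 0.14, adjusted p = 0.00108). Slc38a3, the glutamine transporter SNAT3, was the most abundant of this group. It rose from 776 ± 132 to 1318 ± 160 CPM (log2 fold change 0.76, SE 0.12, adjusted p = 0.00935). Card10, a scaffold of NF-kappa B signalling, rose from 14.4 to 24.8 CPM (log2 fold change 0.78, adjusted p = 0.00903) and Ripk2, a kinase of the same pathway, from 4.58 to 7.90 CPM (log2 fold change 0.79, adjusted p = 0.0309), though the call of Ripk2 was lost without any 1 of 8 libraries. C77080, which overlaps Yars, rose from 48.0 to 83.9 CPM (log2 fold change 0.81, adjusted p = 0.0154). The predicted gene Gm42047 rose from 61.4 ± 24.3 to 178 ± 103 CPM (log2 fold change 1.55, SE 0.34, adjusted p = 0.0388). Its mean rested partly on AIN93G ZT 4 replicate 2 at 385 CPM, where the other ZT 4 libraries had 109 to 155 CPM, and its call was lost without any 1 of 9 libraries (highest adjusted p = 0.109).

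The genes that fell most without overlap were also of mixed function. Cdkn1a (p21, an inhibitor of cyclin-dependent kinases) had 22.7, 28.8 and 13.3 CPM with AIN93G and 37.3, 27.3 and 48.0 CPM with HFD at ZT 0. It had 4.67, 6.13 and 8.44 CPM with AIN93G and 2.52, 6.53 and 10.1 CPM with HFD at ZT 4. The highest ZT 4 library was below the lowest at ZT 0 (4.47-fold lower, log2 fold change -2.16, SE 0.30, adjusted p = 0.0039). Ppard, the nuclear receptor PPAR delta, was at 74.9, 55.9 and 75.7 CPM with AIN93G and at 72.7, 48.8 and 46.4 CPM with HFD at ZT 0, and at 7.41, 38.4 and 18 CPM and 10.1, 10.6 and 8.26 CPM at ZT 4. The AIN93G ZT 4 libraries spread, with replicate 2 the highest, but none reached the ZT 0 level (log2 fold change -2.10, SE 0.30, adjusted p = 0.00494). Pdk4, the kinase that restrains pyruvate dehydrogenase and so spares glucose, fell from 33.7 ± 14.1 to 10.5 ± 3.19 CPM (log2 fold change -1.70, SE 0.24, adjusted p = 0.0039). Its ranges were 19.2 to 52.7 and 6.64 to 15.3 CPM, and the call was lost when the libraries of ZT 8 were in the fit (adjusted p = 0.185).

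Loxl4, a lysyl oxidase of the matrix, had 31.9, 40.1 and 31.7 CPM with AIN93G and 59.7, 52.7 and 53.2 CPM with HFD at ZT 0, and 9.01, 24.3 and 21 CPM and 10.3, 15.1 and 6.29 CPM at ZT 4. It was thus the higher in HFD at ZT 0 (log2 fold change for both diets -1.65, SE 0.30, adjusted p = 0.0173). Dnajb9 (ERdj4), a co-chaperone of the endoplasmic reticulum, fell from 111 ± 40.4 to 43.3 ± 16.7 CPM (log2 fold change -1.38, SE 0.20, adjusted p = 0.00549), with the highest ZT 4 and the lowest ZT 0 library both at 67.4 CPM. Rnf125, a ubiquitin ligase, fell from 154 to 75.6 CPM (log2 fold change -1.05, adjusted p = 0.00398), and Lgalsl, a galectin-like protein, from 55.9 to 27.4 CPM (log2 fold change -1.05, adjusted p = 0.000511). Gfod1 (log2 fold change -1.52, adjusted p = 0.00113), Fam222a (-1.40, adjusted p = 0.0216), Lonrf3 (-1.31, adjusted p = 0.0143) and Gpr137b-ps (-1.56, adjusted p = 0.00903) fell from levels of 7.603 to 11.9 CPM. The call of Fam222a was lost without any 1 of 3 libraries (highest adjusted p = 0.0687), and that of Lonrf3 with ZT 8 in the fit (adjusted p = 0.107). Gpr137b-ps is a pseudogene of Gpr137b, so its counts are uncertain.

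The means of Cdkn1a and Ppard were lower still at ZT 8, with libraries that overlapped those of ZT 4, and ZT 8 was not tested against ZT 4. Mean CPM at ZT 0, 4 and 8 on the scale of 18 libraries was 29.3, 6.31 and 3.27 for Cdkn1a and 61.8, 15.3 and 7.70 for Ppard. Dnajb9 had its lowest mean at ZT 4, with 110, 42.8 and 61.0 CPM, although its libraries of ZT 4 and ZT 8 overlapped. For Pdk4 the medians were 30.1, 9.66 and 4.50 CPM, and 1 library at 66.7 CPM raised its mean at ZT 8 to 14.7 CPM.

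Lists of genes by pathway were written from general knowledge, but with earlier results of these data known. They are described by the members past the threshold, beside the 1.42% of all genes. Their median log2 fold change stands beside 0.0047 for all genes. Of all 12003 genes tested, 6143 had a positive and 5860 a negative fold change, and 15.8% had an unadjusted p under 0.05. Among 22 tested clock-controlled outputs of the liver, 1 rose (Por) and 3 fell (Cdkn1a, Ppard and Insig2), with a median of 0.054. Insig2, which holds the sterol sensor in the endoplasmic reticulum, fell from 471 ± 58.8 to 309 ± 39.4 CPM without overlap (log2 fold change -0.61, SE 0.10, adjusted p = 0.0112). Por, the electron donor of cytochromes P450, rose from 161 ± 57.1 to 257 ± 65.7 CPM (log2 fold change 0.71, SE 0.16, adjusted p = 0.0387), a call lost without any 1 of 10 libraries. Upp2, a uridine phosphorylase under clock control, had 92.0 ± 55.7 and 249 ± 115 CPM and missed the threshold (log2 fold change 1.43, adjusted p = 0.0676).

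Of 29 tested chaperones and unfolded protein response genes of the endoplasmic reticulum, 5 fell (Dnajb9, Syvn1, Sel1l, Edem1 and Ddit3), 0 rose, and 12 had an unadjusted p under 0.05. The fitted fold change was negative for 27 of the 29, with a median of -0.19, and positive for Trib3 (0.97) and Xbp1 (0.15). Syvn1 and Sel1l, the HRD1 ubiquitin ligase and its partner, together with Edem1 act in the disposal of misfolded proteins. Syvn1 had 110, 246 and 261 CPM with AIN93G and 116, 123 and 160 CPM with HFD at ZT 0, and 48.1, 96.9 and 102 CPM and 70.2, 79.8 and 88.6 CPM at ZT 4. The times did not overlap, and replicates 2 and 3 of AIN93G ZT 0 were the highest (log2 fold change -1.03, SE 0.23, adjusted p = 0.0388). Sel1l fell from 256 to 180 CPM (log2 fold change -0.50, adjusted p = 0.0248) and Edem1 from 317 to 235 CPM (log2 fold change -0.42, adjusted p = 0.0346). Ddit3 (CHOP, ENSMUSG00000025408), a stress transcription factor, fell from 10.5 to 6.14 CPM (log2 fold change -0.78, adjusted p = 0.0391). Syvn1 and Ddit3 overlap Mrpl49 and Mars. Calls were lost without any 1 of 9 libraries for Syvn1 and Ddit3, of 8 for Edem1 and of 4 for Sel1l, but of none for Dnajb9. Hspa5 (BiP), the main chaperone of the list, had 1426 ± 401 and 910 ± 278 CPM and did not pass (log2 fold change -0.63, adjusted p = 0.183). By diet, the median of the list was -0.44 with AIN93G and -0.088 with HFD.

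Among 21 heat shock and cold-inducible genes, only Hspa1b passed, falling from 20.1 ± 8.79 to 8.36 ± 2.60 CPM (log2 fold change -1.28, SE 0.30, adjusted p = 0.0493). Hspa1b has a near-identical copy, Hspa1a, and how reads of the pair were assigned is not given in the sources used here, so its counts are uncertain. Its call was lost without any 1 of 11 libraries. The list's median was -0.084.

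For de novo lipogenesis 0 of 15 passed, although 9 had an unadjusted p under 0.05, 13 had a negative fold change and the median was -0.59. The lowest p was that of Me1, the malic enzyme (log2 fold change -0.73, adjusted p = 0.149). Me1 was at 631, 402 and 344 CPM with AIN93G and at 133, 98.7 and 111 CPM with HFD at ZT 0, against 237, 142 and 166 CPM and 98.4, 110 and 109 CPM at ZT 4. The levels at ZT 0 thus split by diet, and the log2 fold change was -1.34 with AIN93G and -0.11 with HFD (interaction adjusted p = 0.999). Acss2, the acetyl-CoA synthetase, had 291 ± 256 and 111 ± 36.6 CPM (log2 fold change -1.18, adjusted p = 0.179). The medians of the list were -1.16 with AIN93G and -0.11 with HFD. For sterol synthesis and the LDL receptor 0 of 24 passed, with a median of -0.23, and the lowest p was that of Pmvk (log2 fold change -0.80, adjusted p = 0.185). By diet the median was -0.40 with AIN93G, with 19 of 24 negative, and 0.015 with HFD, with 11 of 24 negative. Of 8 fatty acid desaturases and elongases, Elovl5, which extends polyunsaturated fatty acids, fell from 1089 ± 253 to 669 ± 73.0 CPM (log2 fold change -0.70, SE 0.14, adjusted p = 0.0248). All 6 ZT 0 libraries of Elovl5, from 838 to 1521 CPM, lay above the ZT 4 libraries, from 535 to 729 CPM, but the call was lost without HFD ZT 0 replicate 3 or AIN93G ZT 4 replicate 1 (highest adjusted p = 0.0693).

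Among 32 PPAR alpha targets and genes of fat oxidation, 2 fell, Pdk4 and Fgf21, and the median was -0.011 with 16 members on either side. Fgf21, a hormone of fasting, was low throughout, at 6.10, 13.1 and 9.998 CPM with AIN93G and 3.93, 5.59 and 12.4 CPM with HFD at ZT 0, against 3.87, 1.32 and 3.41 CPM and 2.12, 1.94 and 4.37 CPM at ZT 4. The times overlapped slightly (log2 fold change -1.57, SE 0.34, adjusted p = 0.0361), and the call was lost without any 1 of 8 libraries. Of 19 genes of gluconeogenesis and insulin sensing, Irs2, an insulin receptor substrate, fell from 75.3 ± 19.8 to 34.2 ± 13.4 CPM (log2 fold change -1.17, SE 0.23, adjusted p = 0.0269). Irs2 was lost without any 1 of 7 libraries. G6pc (log2 fold change -0.69, adjusted p = 0.233) and Pck1 (-0.20, adjusted p = 0.69) did not pass. Of 20 genes of glycolysis, fructose and glycogen 0 passed, with a median of -0.044, and the lowest p was that of Ppp1r3c, a glycogen-targeting subunit (log2 fold change -0.99, adjusted p = 0.0739).

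Genes of the urea cycle and amino acid catabolism had mostly positive fold changes. None of 34 passed, but 30 had a positive fold change, against 6143 of all 12003 genes, with a median of 0.22. An unadjusted p under 0.05 was found for 9, against 15.8% of all genes. By diet the median was 0.33 with AIN93G, with 3 of 34 negative, and 0.13 with HFD, with 13 of 34 negative. The lowest p was that of Agxt, the peroxisomal alanine-glyoxylate aminotransferase, at 366 ± 97.3 and 519 ± 79.5 CPM (log2 fold change 0.53, adjusted p = 0.10). Among 37 cytochromes P450 and their regulators, 2 rose, Por and Cyp2e1, with a median of 0.096. Cyp2e1, an ethanol- and xenobiotic-oxidizing enzyme of pericentral hepatocytes, rose from 4276 ± 935 to 6273 ± 987 CPM with overlap between times (log2 fold change 0.57, SE 0.13, adjusted p = 0.0397), lost without any 1 of 9 libraries. Of 26 genes of bile acid synthesis and transport 0 passed, with a median of 0.12, led by Abcg5, a sterol exporter (log2 fold change 0.36, adjusted p = 0.061). Cyp7a1, the rate-limiting enzyme of bile acid synthesis, had 53.0 ± 20.1 and 89.2 ± 85.6 CPM (adjusted p = 0.464).

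Of 19 glucocorticoid-responsive genes and metallothioneins, 3 fell (Cdkn1a, Pdk4 and Zbtb16) and the median was -0.067. Zbtb16, a zinc finger repressor, fell from 17.1 to 10.1 CPM (log2 fold change -0.76, adjusted p = 0.0216). Without AIN93G ZT 0 replicate 2 or HFD ZT 0 replicate 3 it missed the threshold (highest adjusted p = 0.0709), as it did with ZT 8 in the fit (adjusted p = 0.27). Of 24 acute-phase genes, Saa4, a constitutive serum amyloid A of lipoproteins, rose from 159 ± 42.7 to 228 ± 55.9 CPM (log2 fold change 0.54, SE 0.09, adjusted p = 0.0102). Saa4 lay higher with HFD at both times, and its libraries overlap between times through this. Of 29 cell cycle genes, Cdkn1a alone passed.

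None passed in the lists of immediate early genes (18 tested, median 0.049), the growth hormone axis (14, 0.0031), iron and heme (19, -0.0039), glutathione and oxidant defence (25, 0.035), UGT and sulfotransferase conjugation (24, 0.083), interferon-stimulated genes (23, 0.17), ribosome biogenesis (28, -0.013), apolipoproteins (21, 0.20) and cytosolic ribosomal proteins (76, 0.070). The median was 0.47 with AIN93G and -0.051 with HFD for the growth hormone axis, and 0.30 with AIN93G and -0.16 with HFD for immediate early genes, differences that were not tested for the lists. Of the cytosolic ribosomal proteins 67 of 76 had a positive fold change, and by diet 37 were negative with AIN93G and 4 with HFD. Of the interferon-stimulated genes 22 of 23 had a positive fold change, the lowest p being that of Usp18 (log2 fold change 0.38, adjusted p = 0.279). The lowest p elsewhere was that of Ier2 (0.57, adjusted p = 0.10), Igfals (0.43, adjusted p = 0.0739), Slc39a14 (0.39, adjusted p = 0.0577), Gss (0.31, adjusted p = 0.206), Ugt1a6a, which shares exons within the Ugt1a locus (0.48, adjusted p = 0.155), Nop14 (-0.30, adjusted p = 0.20), Apoe (0.33, adjusted p = 0.199) and Rpl35a (0.25, adjusted p = 0.448).

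**Figure D4:**
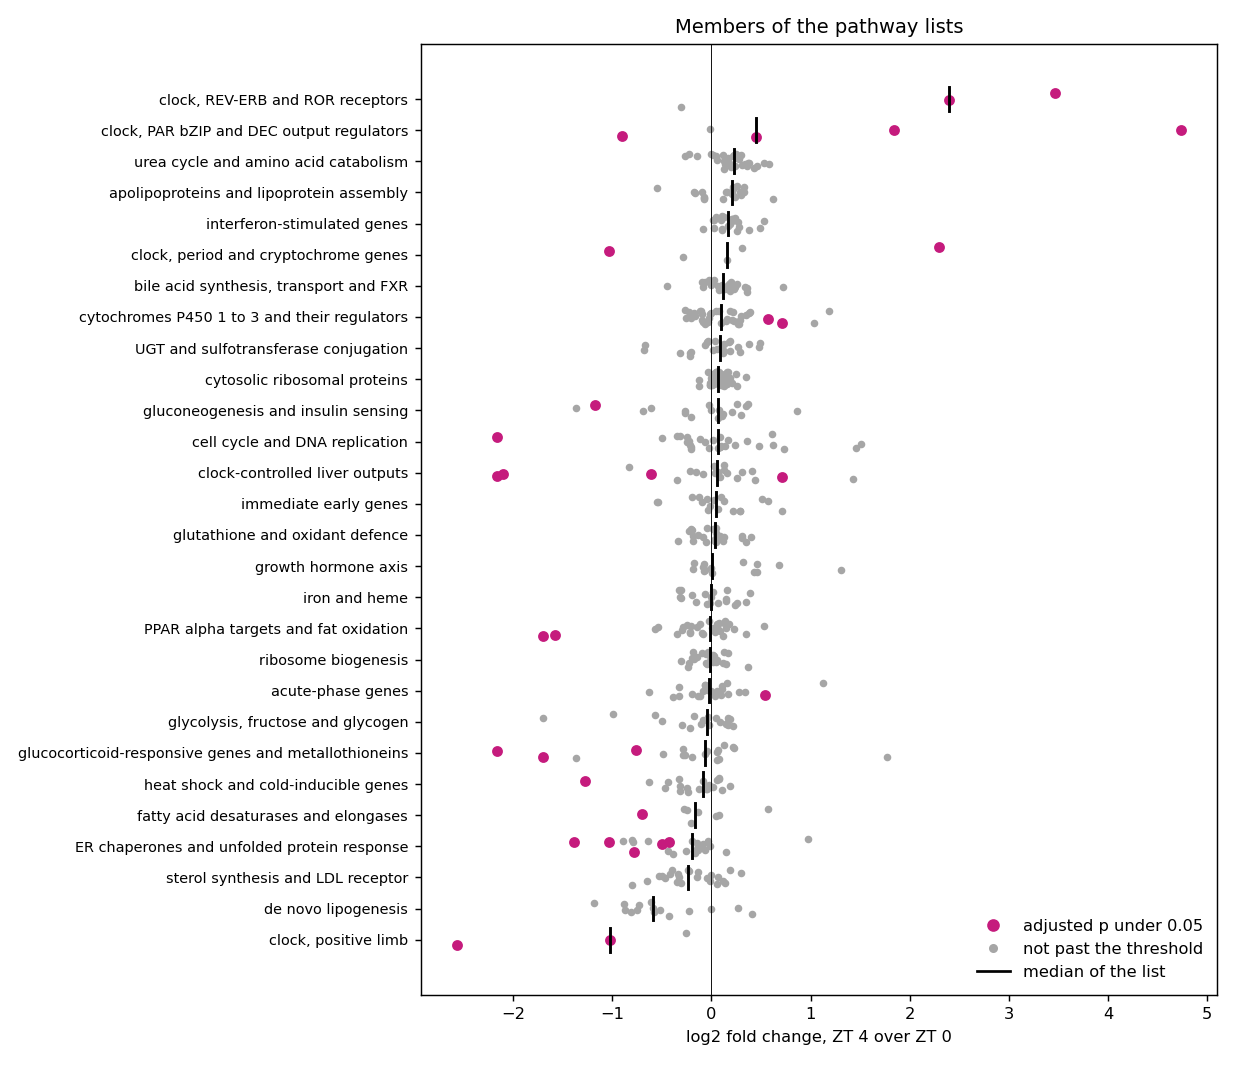
Points are the tested members of each gene list (rows) by log2 fold change at ZT 4 over ZT 0 (x axis), large where adjusted p is under 0.05, with a bar at the median of the list. The clock lists spread from -2.56 for Npas2 to 4.74 for Dbp, the endoplasmic reticulum list has 5 members past the threshold, all lower, and de novo lipogenesis has a median of -0.59 with none.

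Within AIN93G alone, 3 against 3 libraries, 6 genes passed (0.05% of those tested), 5 rising and 1 falling. These were Nr1d1, Nr1d2, Sulf2, Inf2, Gm33543 and, falling, Npas2. Within HFD 22 genes passed (0.183%), 8 rising and 14 falling. The 8 that rose were Nr1d1, Nr1d2, Tef, Dbp, Per3, Klhdc7a, Gnat1 and Nab2. Those that fell included Npas2, Arntl, Nfil3, Lgalsl, Loxl4, Rnf125, Lonrf3, Clpx, Irs2, Cdkn1a, Gfod1, Ppard and Rhobtb1. Nr1d1, Nr1d2 and Npas2 passed in both diets. The counts do not rank the diets, since DESeq2 gave 165 with AIN93G and 106 with HFD, and leaving out 1 library gave 1 to 12 and 9 to 31. That a gene passed in 1 diet only does not show a difference between diets. The interaction of diet and time passed for 0 of 12003 genes in edgeR (297 at an unadjusted p under 0.05, 2.47%) and for 0 in DESeq2 (315 unadjusted).

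For single clock genes the fitted change was larger with HFD than with AIN93G for Dbp (5.66 against 3.49 on the log2 scale), Per3 (3.26 against 1.28), Tef (2.20 against 1.48), Npas2 (-3.26 against -2.01) and Arntl (-1.41 against -0.65). The difference had an unadjusted p of 0.055 for Dbp, 0.00557 for Per3, 0.0612 for Tef, 0.0078 for Npas2 and 0.0107 for Arntl, and none passed after adjustment over all genes (lowest adjusted p = 0.999). Nr1d2 (2.43 against 2.35) was nearly equal and Nr1d1 (3.24 against 3.72) larger with AIN93G. At ZT 4, AIN93G replicate 1 had 17.9 CPM of Arntl, within the 15.9 to 18.1 CPM of the HFD libraries. It had 12.2 CPM of Dbp, where the lowest HFD library had 14.9 CPM. Its Npas2 level was 3.74 CPM, where the highest HFD library had 2.46 CPM. For Tef and Per3 it had 84.0 and 5.61 CPM, where the lowest HFD values were 91.9 and 8.86 CPM. Of the 171 genes that passed in both diets together, 93 had the larger fitted change with HFD.

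The lowest interaction p was that of Gm33543, which had a log2 fold change of 1.19 with AIN93G and -0.06 with HFD (difference -1.25, SE 0.26, unadjusted p = 0.000309). Bhlhe40 had -0.56 with AIN93G and 0.53 with HFD (difference 1.095, SE 0.26, unadjusted p = 0.000923). At ZT 4 it stood at 41.2, 44.9 and 54.1 CPM with AIN93G and at 101, 55.5 and 81.2 CPM with HFD, so that all 3 HFD libraries were above the AIN93G libraries, the reverse of ZT 0. Plk3, a polo-like kinase, had 0.86 with AIN93G and -0.65 with HFD (difference -1.52, SE 0.36, unadjusted p = 0.00104). The other 2 were Cdkl2 (difference 1.05, SE 0.25) and Itsn1 (difference -0.59, SE 0.14). None of these 5 passed after adjustment.

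Where the time points were least apart depended on the library. Among the 171 genes, the ZT 4 library nearest to the ZT 0 mean was AIN93G replicate 2 for 71 genes and AIN93G replicate 3 for 53, but AIN93G replicate 1 for only 13, close to the 12, 15 and 7 of the HFD libraries. AIN93G ZT 4 replicate 2 is the library with the highest ZT 4 level of Cry1, Nfil3, Arntl, Npas2 and Ppard and the lowest of Dbp, Nr1d1, Nr1d2, Per3 and Tef. At ZT 0 the library nearest to the ZT 4 mean was HFD replicate 2 for 57 genes and HFD replicate 1 for 50. Without AIN93G ZT 4 replicate 2, 167 genes passed.

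**Figure D5:**
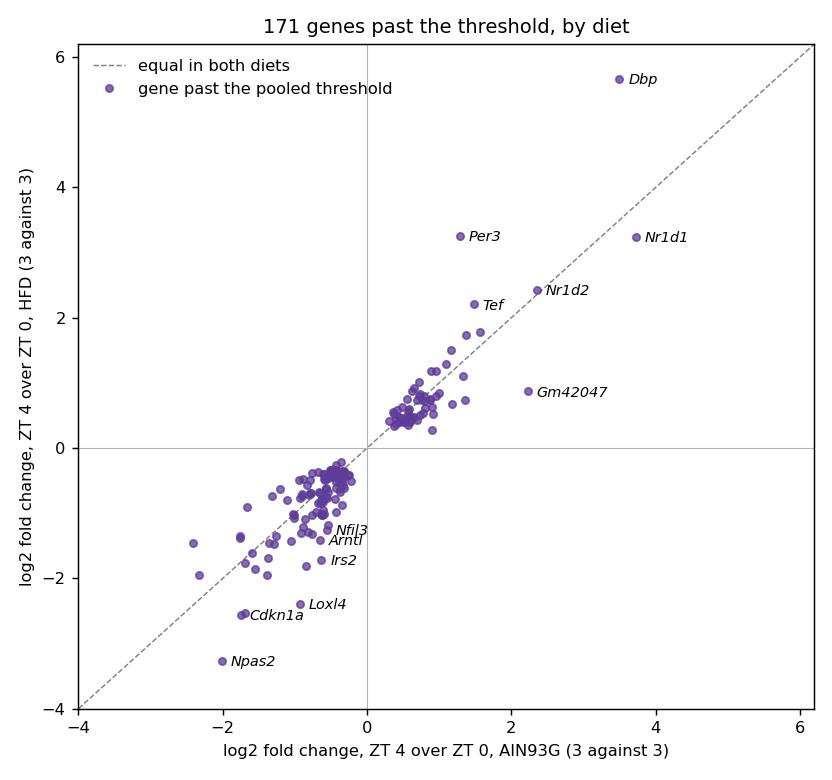
The 171 genes past the threshold by their log2 fold change at ZT 4 over ZT 0 with AIN93G (x axis) and with HFD (y axis), with a dashed line where both are equal. Dbp (3.49 and 5.66) and Per3 (1.28 and 3.26) lie above the line, Nr1d2 (2.35 and 2.43) on it and Gm42047 (2.23 and 0.87) below it, and no gene passed the test of the difference.

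The libraries held hepatocyte markers at high levels. The 15 hepatocyte markers took 14.6% to 15.8% of CPM at ZT 0 and 13.2% to 16.1% at ZT 4, and Alb alone 83037 to 98963 and 66879 to 93319 CPM. Of 9 tested Kupffer cell markers 0 passed, but all 9 had a negative fold change, with sums of 499 to 1251 CPM at ZT 0 and 422 to 730 CPM at ZT 4, highest in HFD ZT 0 replicate 1, and their median log2 fold change was -0.010 with AIN93G and -0.50 with HFD. Of 7 endothelial markers 6 were negative and 0 passed, with sums of 214.8 to 286 and 167 to 222 CPM. Lymphocyte markers summed to 30.6 to 48.7 and 18.7 to 36.7 CPM, with 3 of 3 tested negative, 0 past the threshold and a median of -0.46. Red blood cell markers went the other way without passing, with 5 of 5 tested positive, a median of 0.51, and sums of 73.1 to 143 and 106 to 171 CPM. Of the exocrine pancreas markers only Cela1 was tested (log2 fold change 0.53, adjusted p = 0.124), and Pnlip and Prss2 had 0 counts. In bulk liver, fewer cells of a type and less RNA per cell cannot be told apart. Fibroblast and stellate cell markers summed to 289.7 to 389 and 255 to 336 CPM, with 5 of 9 positive and a median of 0.019, and of these only Dcn, a matrix proteoglycan, passed, falling from 148 to 114 CPM (log2 fold change -0.38, adjusted p = 0.0255). Cholangiocyte markers summed to 29.8 to 55.6 and 34.99 to 46.9 CPM, with 1 of 3 tested positive and a median of -0.11, and Sox9 alone passed, falling from 5.45 to 2.63 CPM (log2 fold change -1.05, adjusted p = 0.0397). The part of these cells in the falls described above was not tested. Adipocyte markers summed to 26.8 to 37.5 CPM at ZT 0 and 24.6 to 94.4 CPM at ZT 4. Of 6 tested 4 were positive and 0 passed, with a median of 0.50, and of 0.81 with AIN93G and 0.17 with HFD. Their sum was highest in AIN93G ZT 4 replicate 3. This library also held 401 counts of Ucp1, a marker of brown fat, against at most 1 in the other libraries. The brown adipocyte markers together summed to 5.17 to 49.97 CPM at ZT 0 and 5.52 to 70.4 CPM at ZT 4. Their sum was highest in HFD ZT 4 replicate 3, which had 0 counts of Ucp1. Of these markers 3 of 3 tested were positive and 0 passed, with a median of 0.60. Lep had a mean of 0.667 counts and Csn2, a milk protein, 0.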

How the data were processed

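Poly(A) RNA of liver from 12 mice, 3 per diet at ZT 0 and at ZT 4, was analysed out of 42 libraries. The authors deposited raw counts of reads for each gene in 1 table, not normalized, beside gene positions and lengths. Sequencing and processing were done by a company, and the submitters' notes list fastp, STAR, HTSeq 0.6.1, DESeq, STAR-Fusion and the build mm10, with no parameters. The strand setting is not given in the sources used here.

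Genes with a mean of at least 25 counts over the 12 libraries were tested with the quasi-likelihood test of edgeR 4.0.16 in R 4.3.3, after TMM scaling, with terms for diet and time and Benjamini-Hochberg adjustment. All single-gene p-values are from edgeR unless DESeq2 1.42.0 is named. Diets were also compared in a model with an interaction term, in which each diet's time effect was tested. The scripts were tested on simulated data. A floor of 3 counts, which covers counting error only, was set but was not applied to any level or test. p-values measure the spread between mice.

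Named genes were, in each direction, the 12 largest changes past 0.05 with at least 5 CPM and no overlap between times, the clock genes, members of other lists past the threshold (or the member with the lowest p), the 5 genes with the lowest interaction p and the 10 with the lowest time p. Genes beyond this rule (Sphk2, Upp2, Hspa5, Acss2, G6pc, Pck1, Cyp7a1, Trib3, Xbp1, the genes called within a diet and the marker genes) were chosen after their values were seen. Results of 2 genes are not reported here. The comparison, members and lists were chosen with earlier results of these data known. Promoter windows were matched by symbol to RefSeq for 27 of 36 genes. Alternatives were DESeq2, other scalings and filters, a fit with ZT 8, no diet term, a threshold of 0.01 and leaving out each library.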

Additional observations from a re-analysis of the deposited data

Results flagged for a closer look

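Dixon's test at the 95% level was applied to the 6 libraries of each time for 33 named genes, 66 sets in all, of which chance flags about 1 in 20, and 2 stood out. Gm42047 had 385 CPM in AIN93G ZT 4 replicate 2, where the other 5 libraries of ZT 4 had 109 to 155 CPM. Per1 was at 3.02 CPM in AIN93G ZT 0 replicate 3, against 15.8 to 37.0 CPM in the other 5 libraries of ZT 0.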

How the results depend on the processing

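The 171 genes became 27 at an adjusted p under 0.01 and 433 with DESeq2 (191 higher, 242 lower, all 171 shared), and 53 to 167 when 1 library was left out. Without AIN93G ZT 0 replicate 2 there were 53, without HFD ZT 0 replicate 3 there were 61, without AIN93G ZT 4 replicate 1 there were 76, without AIN93G ZT 0 replicate 3 there were 78, and without HFD ZT 4 replicate 3 there were 87. The other settings gave 117 (no diet term) to 172 (DESeq2 size factors). Scaling by library size moved the median of all genes to -0.037 and gave 49 higher and 114 lower. Within AIN93G the 6 genes became 165 with DESeq2, 10 with a mean count of at least 1, 12 with ZT 8 in the fit, and 1 to 12 without 1 library. Within HFD the 22 became 106 with DESeq2 and 9 to 31 without 1 library. The interaction gave 0 in each setting.

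Of 41 named genes past the threshold, 17 stayed past it in each of the 21 settings that tested them, 24 missed it in at least 1, and 0 reversed. Of 24 named genes that missed it, 7 passed with DESeq2, Rora, Ppp1r3c, Abcg5, Agxt, Ier2, Igfals and Slc39a14 (adjusted p from 0.00327 to 0.0336). With ZT 8 in the fit 11 missed it, Pdk4, Lonrf3, Hlf, Cry1, Por, Hspa1b, Edem1, Sel1l, Ddit3, Fgf21 and Zbtb16 (adjusted p from 0.0535 to 0.27). With no diet term 9 missed it, Hlf, Cry1, Por, Hspa1b, Edem1, Sel1l, Ddit3, Cyp2e1 and Saa4 (adjusted p from 0.0504 to 0.21). Hlf alone missed it with scaling by library size (adjusted p = 0.0638). Hspa1b alone missed it with the count filter over all 42 libraries (adjusted p = 0.0502). At an adjusted p under 0.01, 23 were lost. The log2 fold change of Bhlhe40, near 0, turned to 0.0031 with ZT 8 in the fit, to 0.028 with no diet term and lay between -0.16 and 0.094 when 1 library was left out, above 0 in 7 of 12 cases. That of Plk3 lay between -0.073 and 0.28, below 0 in 3 of 12 cases. The causes were not tested. No paired analysis was possible because the labels give no replicate numbers. The titles of 1 ZT 0 and 1 ZT 4 library, replicate 3 of HFD in both, share a first part whose meaning is not stated.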

Other observations

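Single genes outside the lists that fell at ZT 4 are given here. They were chosen after their values were seen and because they fell, so they show nothing of a pathway. Eif2ak3 (PERK), a sensor of the unfolded protein response, fell from 33.2 to 16.3 CPM (log2 fold change -1.02, adjusted p = 0.00618). Creb3l2, a transcription factor of secretory load, fell from 54.5 to 25.8 CPM (log2 fold change -1.10, adjusted p = 0.00925). Atp2a2, the calcium pump of the endoplasmic reticulum, fell by 0.66 on the log2 scale, Gfpt1, which starts hexosamine synthesis, by 0.96, and P4ha1, which hydroxylates collagen prolines, by 0.70. The glycosylation genes Stt3b, Alg12 and Mgat2 fell by 0.34, 0.81 and 0.57, and Srp68, of the signal recognition particle, by 0.43.

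Among genes that rose, Cebpa, a transcription factor of hepatocyte identity, went from 358 to 539 CPM (log2 fold change 0.59, adjusted p = 0.0154). The zinc exporter Slc30a1 rose by 0.56 on the log2 scale, while the metal transporters Slc30a10 and Slc39a10 fell by 0.59 and 0.72. Gpr146 rose by 1.22 and the fructose transporter Slc2a5 by 1.56. These genes were also chosen after their values were seen.

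In 2 ZT 4 libraries a gene was high alone. Dmbt1 had 2231 counts in AIN93G ZT 4 replicate 1 and 0 to 4 in the other 11 libraries (log2 fold change 11.64, adjusted p = 0.159). AIN93G ZT 4 replicate 3 had 401 counts of Ucp1 (others 0 to 1, adjusted p = 0.111) and 284 of Cfd, an adipocyte gene (others 0 to 14, adjusted p = 0.237).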
